A study of Mus musculus with 30 samples.

Results

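The aorta and the kidney of wild-type (WT) mice on the standard-fat diet (SFD) were compared gene by gene, with the genotype and the diet held constant. The libraries were 3 aortae (aorta 1 to 3) and 4 kidneys (kidney 1 to 4), 7 of the 30 libraries of a study that set WT mice against mice with a smooth muscle knockout of the EGF receptor (EGFR), on SFD or on a high-fat diet (HFD). Aorta 1 and kidney 1 came from the same mouse, so the 7 libraries came from 6 mice. All were male C57BL/6 mice. The promoter of Smmhc (Myh11, smooth muscle myosin heavy chain) drove a tamoxifen-inducible Cre recombinase in WT and knockout mice alike. Both had received 1 mg tamoxifen per day for 5 days. In WT mice Cre had no loxP sites to act on. Feeding began at 6 weeks of age and lasted 18 weeks. The aortae had been cleaned of adjoining fat and connective tissue before freezing. Only protein-coding genes were used, 22026 of the 41128 rows of the tables, joined between the organs by gene identifier. Chromosomes 9, X and Y, the mitochondrial genome and part of chromosome 8 carry no counts in the tables, so 2693 protein-coding genes (12.2%) were not analysed here.

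The aorta is an elastic artery. Its wall consists mainly of contractile smooth muscle cells between sheets of elastin and collagen, lined by endothelium and surrounded by a fibroblast-rich adventitia and, around that, fat. The kidney is mainly epithelium: each nephron filters plasma through the podocytes of the glomerulus, the proximal tubule then recovers phosphate, glucose, amino acids and filtered proteins, and the loop of Henle, distal tubule and collecting duct set the final salt and water content of the urine. Smooth muscle in the kidney lies mainly in its vessels. In whole organs, fewer cells of a type cannot be told apart from less RNA per cell.

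A company had sequenced the kidneys, and a core unit of the university the aortae, so organ cannot be told apart from sequencing site. Total counts were 8346864, 10466922 and 7680588 in the aortae and 17833253, 16354880, 28331314 and 23524775 in the kidneys, in the order of their numbers, which is kept throughout. Protein-coding genes took 47.1, 52.4 and 53.4% of the counts of the aortae and 86.1, 86.0, 85.7 and 86.6% of those of the kidneys. Genes of small nuclear RNAs took 20.1, 16.4 and 18.0% of the aortic counts, but 0.00180, 0.00109, 0.00170 and 0.00167% of the renal ones. The 2 sets of libraries therefore differed in make-up as well as in organ, and the weight below is on large differences and on ranks within an organ. Levels are fragments per 1000000 protein-coding fragments (FPM) after scaling with edgeR's TMM factors. Ranks use FPM per kilobase of exon. A difference was called at an edgeR adjusted p below 0.001 and named large when the log2 fold change (aorta minus kidney) also lay beyond 2 in size.

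The 3 aortae were not alike in markers of other tissues. The 20 adipocyte markers summed to 55746, 42536 and 1922 FPM in aorta 1 to 3, against 1768, 2399.5, 1994 and 2562 FPM in the kidneys, so that aorta 3 was at the level of the kidneys. Scd1 (stearoyl-CoA desaturase), the most abundant of them, was at 25589.8, 19893 and 549 FPM in the aortae and 396, 417, 255 and 415 FPM in the kidneys. Adipoq (adiponectin) was at 314, 244 and 8.75 FPM in the aortae, and Ucp1, the uncoupling protein of brown fat, at 932, 421 and 5.11 FPM. The cardiac and skeletal muscle markers summed to 98.2, 1279 and 35.2 FPM in the aortae. Myh6, a cardiac myosin heavy chain, was at 2.85, 408 and 3.40 FPM, so aorta 2 stood apart from the other aortae. The adrenal list summed to 92.7, 14.01 and 15.1 FPM in the aortae and 4.28, 2.90, 3.84 and 2.77 FPM in the kidneys, highest in aorta 1. Its most abundant gene, the catecholamine enzyme Dbh (dopamine beta-hydroxylase), was at 56.6, 2.53 and 0 FPM in the aortae. Pnmt, another catecholamine enzyme of the list, ran the other way, at 0.219, 2.70 and 5.11 FPM, lowest in aorta 1. The adrenocortical steroid enzymes Cyp11b1 and Cyp11b2 had no count in any of the 7 libraries. Star, the only gene of this list that was tested, was at 9.65, 7.93 and 9.97 FPM in the aortae. In the kidneys it was at 3.94, 2.67, 3.50 and 2.66 FPM (log2 fold change 1.52, adjusted p = 0.000347). Its call was lost with 5 of the 7 libraries left out in turn. Pearson's r of log2 values across genes, which are not independent replicates, was 0.972 between aorta 1 and 2, 0.928 and 0.948 between those and aorta 3, 0.984 to 0.990 between kidneys and 0.475 to 0.541 between an aorta and a kidney. Results were therefore also computed with aorta 3 as the only aorta, where the spread comes from the 4 kidneys alone.

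Of 13382 genes tested, 6896 (51.5%) differed between the organs, of which 3166 (23.7%) were higher in the aorta and 3730 (27.9%) in the kidney. With upper quartile factors the split turned to 3885 against 3000, so the balance of these calls depended on the scaling. Large differences numbered 3928 (29.4%), 1909 (14.3%) towards the aorta and 2019 (15.1%) towards the kidney. In all of them the lowest library of the higher organ lay above the highest of the other, which was also true of 35.5% of all genes tested towards the aorta and of 41.7% towards the kidney. This balance turned to 2303 against 1655 with upper quartile factors, 2139 against 1734 with library totals, 2041 against 1922 with RLE factors and 2233 against 2088 by DESeq2. It also turned without aorta 3 (1971 against 1886), with all 8 groups in 1 fit (2427 against 2151) and with a correction for exon length (1850 against 1648). Beyond a log2 fold change of 4 there were 795 genes towards the aorta and 863 towards the kidney, which turned to 921 against 783 with upper quartile factors. The order at this fold also turned with library totals (874 against 804), RLE factors (848 against 841) and DESeq2 (901 against 892). The same held without aorta 3 (875 against 786), with all 8 groups in 1 fit (1063 against 917) and with the length correction (835 against 771). Beyond 6 there were 307 and 515, and beyond 8 there were 93 and 330. With upper quartile factors these were 361 and 478, and 117 and 313, and more lay towards the kidney beyond 6 and 8 in each of the 18 alternative fits. Of the genes with large differences, 201 of the kidney had no count in any aorta, whereas 45 of the aorta had no count in any kidney. The kidneys had been sequenced more deeply, and 3 counts over the group, the limit that a count of 0 allows, corresponded to 0.0429 FPM in the kidneys and 0.205 FPM in the aortae. These limits, and all counting intervals, cover counting error only. At least 1 FPM was reached by 11464 genes in every aorta and by 11595 genes in every kidney, and by 10394 in all 7 libraries. Only 641 genes reached it in every aorta and no kidney, and 577 in every kidney and no aorta.

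**Figure D1:**
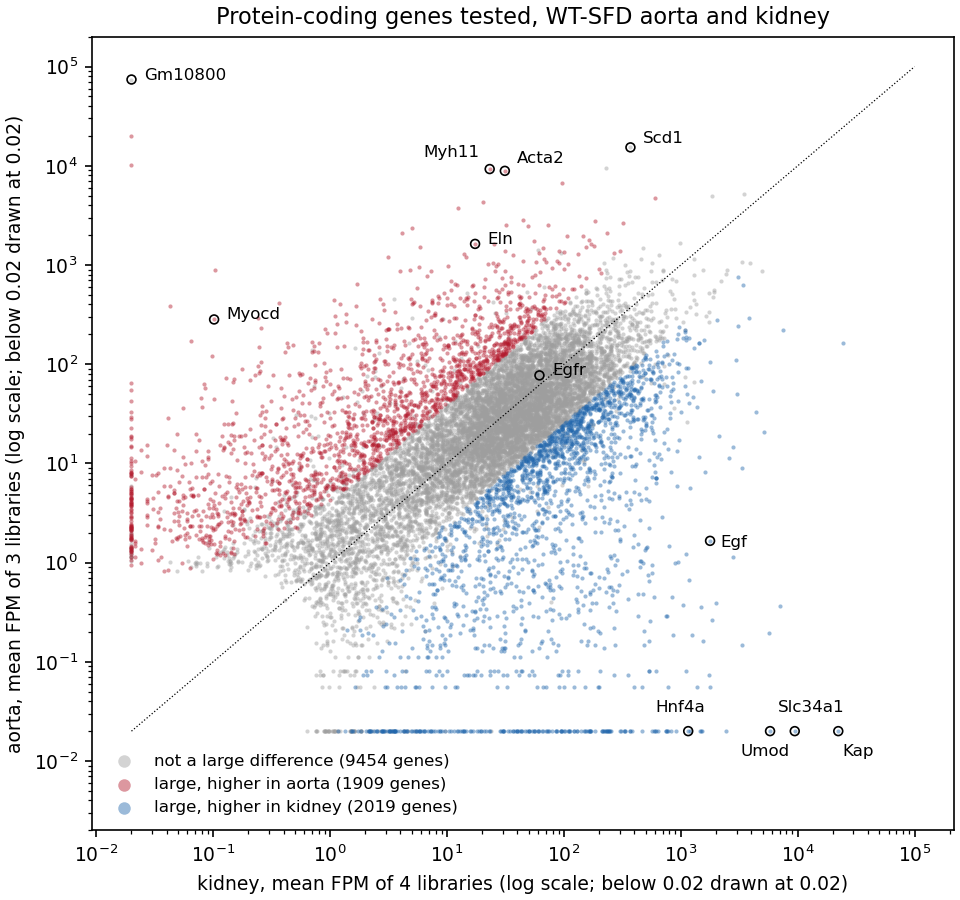
Mean FPM of each of the 13382 genes tested in the 4 WT-SFD kidneys (horizontal, log scale) and the 3 WT-SFD aortae (vertical, log scale), with values below 0.02 FPM drawn at 0.02. Coloured points are the 1909 genes with a large difference towards the aorta and the 2019 towards the kidney. The smooth muscle genes lie far above the diagonal, and the tubular genes far below it, many of them at the lower edge.

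Genes were also ranked within each organ by level per kilobase. In the kidney the highest protein-coding gene was Kap, the androgen-regulated protein of the proximal tubule, followed by Gpx3 (the secreted glutathione peroxidase). Ranks 4 to 10 were Cox6a1, Cyp4b1, Umod (uromodulin), the pseudogene-like Gm5424, Igfbp7, Miox (myo-inositol oxygenase) and Slc34a1 (the sodium-phosphate cotransporter). Kap was at 19334, 18046, 24227 and 27357 FPM in the kidneys with no count in any aorta, at least 111183-fold higher. Gpx3 was at 22428, 29225, 21598 and 24762 FPM in the kidneys and 282, 182 and 32.3 FPM in the aortae. In the aorta, ranks 4 to 9 included Acta2 (smooth muscle actin), Scd1, Actb (cytoplasmic actin), Myl9 (regulatory myosin light chain) and Myh11. Scd1, rank 5 by the mean, ranged from rank 4 to rank 186 in single aortae. Ranks 1 to 3 and 10 fell to the predicted gene models Gm10800, Gm21738, Gm10801 and Gm4076, whose reads may be shared with near-identical copies and whose values are therefore uncertain.

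Gm10800 was at 30869, 67058 and 124374 FPM in the aortae and had no count in the kidneys (adjusted p = 0.00133, so not called). Together with Gm10801 and Gm21738 it took 5.11, 10.3 and 17.4% of the protein-coding counts of the 3 aortae and 0% of those of the kidneys. The 10 highest genes held 13.4, 17.4 and 22.6% of the aortic counts and 8.87, 8.80, 9.15 and 9.68% of the renal ones. Without the gene models named Gm the aortic shares were 10.2, 9.56 and 7.74%, so the gap between the organs rested on these models. Small nuclear RNAs, which differed between the sets of libraries in the same way, were counted above, and their part in this result was not tested.

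The top 100 genes of the organs shared 26 members. When genes were ranked without their length, 11 were shared. Among the 26 were subunits of the respiratory chain and ATP synthase (Cox6a1, Cox8a, Atp5a1, Atp5b), ubiquitin (Ubb), the elongation factor Eef2, ferritin heavy chain (Fth1), the chaperone Hsp90ab1, the lysosomal protein Psap and ribosomal pseudogene-like rows such as Rps12-ps3. The lowest ranks of Cox6a1, Cox8a, Atp5a1 and Atp5b in a single aorta were 130, 173, 247 and 339, outside the top 100. Each had its lowest FPM in aorta 3, such as Cox6a1 at 430, 317 and 98.9 FPM in the aortae. Igfbp7, an extracellular binding protein of insulin-like growth factors, was rank 13 in the aorta and rank 8 in the kidney. Pck1, the gluconeogenic enzyme phosphoenolpyruvate carboxykinase, which fat also uses, was among the 26 at 1348, 1052 and 21.9 FPM in the aortae and 1736, 855, 2793 and 4412 FPM in the kidneys, with aorta 3 far below the other two.

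The contractile apparatus of smooth muscle was the first aortic group. Of its 20 genes, 3 (Tagln, Cnn1 and Tpm1) lie in regions without counts, and all 17 others had large differences towards the aorta, against 14.3% of all genes tested, with a median log2 fold change of 5.65 (range 2.38 to 8.64) where the median of all genes tested was -0.11. The list summed to 26173, 34077 and 43042 FPM in the aortae and 622, 621, 645 and 576 FPM in the kidneys. The 2 promoters below are shown because Acta2 and Myl9 were the best-ranked contractile genes of the aorta and because they carry CArG boxes, the motif bound by serum response factor (SRF). They give the 250 bases before the RefSeq start site (GRCm38.p6), 5′ to 3′ on the gene's strand, with capitals marking CArG matches that allow 1 departure in the A/T core. As GENCODE vM21 draws the genes, the window of Acta2 lies mostly inside the gene, both matches included, and that of Myl9 overlaps its first bases.
Acta2 promoter, chr19:34255374-34255623, minus strand: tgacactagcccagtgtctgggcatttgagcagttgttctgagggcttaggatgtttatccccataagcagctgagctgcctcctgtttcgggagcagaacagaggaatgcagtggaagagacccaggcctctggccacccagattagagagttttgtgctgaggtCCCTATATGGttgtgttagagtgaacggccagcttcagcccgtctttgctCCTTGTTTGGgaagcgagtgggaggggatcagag
Myl9 promoter, chr2:156775214-156775463, plus strand: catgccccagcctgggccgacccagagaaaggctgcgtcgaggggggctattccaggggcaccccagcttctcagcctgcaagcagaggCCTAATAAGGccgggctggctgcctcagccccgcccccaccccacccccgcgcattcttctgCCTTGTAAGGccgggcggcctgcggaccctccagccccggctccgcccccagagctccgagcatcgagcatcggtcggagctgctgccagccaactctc
The matches began at positions -84 and -34 of Acta2 and at -161 and -99 of Myl9, counted from the start site, and only the one at -161 had no departure. A perfect CArG box was found in 3 of 18 promoters of 16 contractile genes (16.7%), in 2.00% of the promoters of all genes with a large aortic difference and in 1.63% of the 32851 promoters in the RefSeq table. With 1 departure allowed the shares were 22.2, 9.95 and 9.98%, and the share on the list of proximal tubule metabolism, described below, was 16.1%. A match is a description of the letters, searched over 300 bases of each promoter on both strands.

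Acta2 (ENSMUSG00000035783, chr19:34241090-34255590) was at 7495, 8679 and 10512 FPM in the aortae and 27.2, 40.4, 29.4 and 27.9 FPM in the kidneys (log2 fold change 8.15, SE 0.446, adjusted p = 7.76e-07), 288-fold higher. It was rank 4 in the aorta and rank 3665 in the kidney, and the organs were far from overlapping. Myh11, the gene whose promoter drives Cre in these mice, was at 6450.3, 9131 and 12241 FPM in the aortae and 24.2, 23.7, 19.8 and 25.1 FPM in the kidneys (log2 fold change 8.64, SE 0.482, adjusted p = 8.63e-07). It was rank 9 in the aorta and rank 8204 in the kidney. Among the aortae the order was the same for both, with aorta 3, which had the fewest adipocyte transcripts, highest and aorta 1 lowest. Myl9 was at 1129.9, 1473 and 1838 FPM in the aortae and 61.7, 79.1, 65.4 and 56.9 FPM in the kidneys (log2 fold change 4.49). Cald1 (caldesmon, which holds back actomyosin at rest) was at 1732, 2407 and 3284 FPM in the aortae and 56.5, 45.1, 52.2 and 43.03 FPM in the kidneys. Itga8, an integrin of smooth muscle, was at 2478, 3784 and 4988 FPM in the aortae and 15.04, 10.6, 13.6 and 10.3 FPM in the kidneys. Both were again highest in aorta 3. The smallest difference on the list was that of Des (desmin, an intermediate filament), at 97.6, 112 and 90.2 FPM in the aortae and 18.4, 23.8, 17.7 and 16.8 FPM in the kidneys (log2 fold change 2.38, SE 0.156, adjusted p = 1.99e-06), still without overlap. The myosin light chain kinase genes Mylk4 and Mylk2 were among the most aortic genes of the whole table. Neither is on the contractile list, which holds their relative Mylk. Mylk4 was at 184, 371 and 602 FPM in the aortae and had 4 counts in the kidneys. Mylk2 was at 32.5, 48.4 and 82.9 FPM in the aortae with 1 count in the kidneys, a ratio of 3718 with a 95% counting interval of 667 to 146849.

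The regulators of these genes did not follow them evenly. Myocd (myocardin), the coactivator that directs SRF to contractile genes, was at 205, 282 and 361 FPM in the aortae and 0.200, 0.152, 0 and 0.0543 FPM in the kidneys (log2 fold change 11.48, SE 0.547, adjusted p = 1.37e-07), with only 6 reads over the 4 kidneys, a 3265-fold difference. Srf itself was at 95.4, 99.4 and 96.5 FPM in the aortae and 65.9, 83.5, 66.3 and 65.6 FPM in the kidneys (log2 fold change 0.47, SE 0.123, adjusted p = 0.00725). The difference was not called, although the organs did not overlap. It was called in WT-HFD mice (log2 fold change 0.96, adjusted p = 3.99e-06) and with the correction for exon length (log2 fold change 1.07, adjusted p = 4.24e-05). Mkl1, a myocardin-related coactivator that most cells make, was at 44.7, 42.9 and 47.6 FPM in the aortae and 27.4, 25.8, 29.9 and 23.8 FPM in the kidneys (log2 fold change 0.75, SE 0.128, adjusted p = 0.000606). This small difference no longer passed when any 1 library was left out. Its relative Mkl2 was at 120.2, 143 and 181 FPM in the aortae and 21.1, 21.6, 22.1 and 20.6 FPM in the kidneys (log2 fold change 2.79). Large aortic differences were also found for the mesodermal factors Gata6, Mef2c and Prrx1, for the receptor Notch3 and its target Heyl, and for Meox2, Twist1 and Twist2, in all 10 of the 14 tested, beside 14.3% of all genes tested. The calls of Twist1 and Meox2 were lost with most single libraries left out (adjusted p up to 0.00276 and 0.00252, both without kidney 1). That of Twist2 was lost without aorta 1 (adjusted p = 0.00156). Gata6 was at 101, 110.4 and 131 FPM in the aortae and 2.41, 2.82, 2.30 and 2.33 FPM in the kidneys (log2 fold change 5.53). The exception was Tcf21, a factor of podocytes and stromal progenitors, at 0.439, 0.169 and 2.67 FPM in the aortae and 38.6, 45.4, 38.1 and 37.4 FPM in the kidneys (log2 fold change -5.29, SE 0.593, adjusted p = 4.84e-05). Meox1 was at 5.04, 6.24 and 0.486 FPM in the aortae and 8.75, 9.15, 8.06 and 7.76 FPM in the kidneys and was not called.

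The receptors and channels that set vascular tone were mostly aortic: 16 of 25 had large differences towards the aorta, none towards the kidney, beside 14.3 and 15.1% of all genes tested, and the median log2 fold change was 2.95. The most abundant, Rgs5, a brake on G protein signalling in smooth muscle and pericytes, was at 2239, 2675 and 2639.6 FPM in the aortae and 32.8, 33.5, 31.4 and 30.4 FPM in the kidneys (log2 fold change 6.30, adjusted p = 1.13e-07). The L-type calcium channel Cacna1c, through which contraction is triggered, was at 214, 215 and 331 FPM in the aortae and 3.34, 4.57, 4.61 and 2.28 FPM in the kidneys. The calcium-activated potassium channel Kcnma1 was at 125, 165 and 208 FPM in the aortae and 2.94, 0.839, 1.71 and 2.82 FPM in the kidneys. Both were low in every kidney. The soluble guanylate cyclase subunits Gucy1a3 and Gucy1b3, the receptors of nitric oxide, and the kinase Prkg1 downstream of them were all large. Prkg1 was at 98.01, 100.4 and 111 FPM in the aortae and 1.14, 0.839, 0.555 and 1.03 FPM in the kidneys (log2 fold change 6.86). The alpha-1 adrenoceptor Adra1d was at 57.9, 26.5 and 67.1 FPM in the aortae and 2.21, 1.22, 1.49 and 2.01 FPM in the kidneys, a large difference. Adra1b was at 0.877, 2.03 and 3.89 FPM in the aortae and 3.81, 4.65, 3.07 and 3.64 FPM in the kidneys and was not called. For the type 1 angiotensin receptors, Agtr1b was aortic at 3.51, 2.70 and 2.67 FPM in the aortae and 0.0668, 0.152, 0.0427 and 0 FPM in the kidneys (log2 fold change 5.44, SE 0.591, adjusted p = 6.80e-06). Agtr1a was at 8.33, 8.10 and 0.243 FPM in the aortae and 46.2, 42.5, 37.4 and 42.1 FPM in the kidneys (adjusted p = 0.00334, not called), with aorta 3 lowest. Ednra, the endothelin receptor of smooth muscle, had a large aortic difference. Ednrb, that of endothelium and tubule, was at 28.3, 22.1 and 7.78 FPM in the aortae and 22.1, 22.3, 21.8 and 16.2 FPM in the kidneys without a called difference.

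The matrix of the wall was the second aortic group. On the elastic fibre list 12 of 15 genes tested had large differences towards the aorta, where 14.3% of all genes tested had (median 4.71), and on the list of collagens and other matrix proteins 25 of 29 (median 4.19), with none towards the kidney on either. The matrix list summed to 17891, 20370.00 and 25572 FPM in the aortae and 1379.8, 1492, 1422 and 1347 FPM in the kidneys. Eln (elastin) was at 1352, 1628 and 1917 FPM in the aortae and 15.2, 24.2, 12.5 and 17.7 FPM in the kidneys (log2 fold change 6.55, SE 0.296, adjusted p = 3.23e-07). Fbn1 (fibrillin-1), the microfibril scaffold of elastin, was nearly constant between aortae, at 571, 552 and 561 FPM in the aortae and 11.7, 10.3, 11.1 and 10.6 FPM in the kidneys (log2 fold change 5.68). Fn1 (fibronectin), the most abundant matrix gene, was at 3879.9, 4493 and 4462 FPM in the aortae and 17.2, 19.1, 20.3 and 23.8 FPM in the kidneys (log2 fold change 7.73). The adhesive matrix protein Postn (periostin) was at 879, 1287 and 1484 FPM in the aortae and 2.61, 3.28, 4.39 and 2.22 FPM in the kidneys (log2 fold change 8.59). The fibrillar collagen Col1a1 was at 1347, 1164 and 2420.3 FPM in the aortae and 22.1, 24.8, 28.6 and 25.8 FPM in the kidneys, higher in aorta 3 than in the other two. The basement membrane collagens, which every tubule also lays down, differed less. Col4a1 was at 873, 997 and 804 FPM in the aortae and 224, 234, 228 and 233 FPM in the kidneys (log2 fold change 1.96) and Col4a2 had a log2 fold change of 1.72, both called but short of the large limit. Col4a3 and Col4a4, the chains of the glomerular basement membrane, were not on the matrix list counted above and went the other way. Col4a3 was at 30.9, 40.5 and 52.5 FPM in the aortae and 266, 198, 249 and 242 FPM in the kidneys (log2 fold change -2.53) and Col4a4 had a log2 fold change of -1.93. Thbs1 (thrombospondin-1) was at 65.3, 84.9 and 97.5 FPM in the aortae and 92.5, 45.8, 78.2 and 40.97 FPM in the kidneys, with overlapping organs and no call.

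The proximal tubule was the first renal group. Of its 33 transport genes 32 were tested, and 31 of these had large differences towards the kidney, against 15.1% of all genes tested, with a median log2 fold change of -9.35. With the 7 members that had no count in the aorta set to their lower bounds, the median was -8.78. The list summed to 31529, 29342, 29842 and 36997 FPM in the kidneys and 576, 447 and 266 FPM in the aortae.

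Slc34a1 (ENSMUSG00000021490, chr13:55398187-55415592) was at 9402, 8068, 9005 and 11268 FPM in the kidneys and had no count in any aorta, at least 46284-fold higher (adjusted p = 7.54e-06). Slc22a6, the organic anion transporter that takes up drugs such as p-aminohippurate, was at 1345, 1247, 1365 and 1988 FPM in the kidneys with no aortic count, at least 7313-fold higher, and the neutral amino acid transporter Slc6a18 at least 5918-fold higher. All 3 aortae were thus at 0 for defining genes of the renal tubule. Slc5a2, the glucose transporter SGLT2 of the early proximal tubule, was at 579, 342, 442 and 474 FPM in the kidneys and 1.75, 0.844 and 0.486 FPM in the aortae (log2 fold change -8.79). Lrp2 (megalin), the receptor for filtered proteins, was at 2274, 1849, 1671 and 2228 FPM in the kidneys and 0.439, 0 and 0.729 FPM in the aortae. Its partner Cubn (cubilin) was at 430.1, 385, 351 and 414 FPM in the kidneys and 0.219, 2.36 and 3.16 FPM in the aortae. Neither reached 4 FPM in any aorta. The water channel Aqp1 was renal but also measured in every aorta. It was at 1479.8, 1519, 1677 and 1640.8 FPM in the kidneys and 188, 188 and 146 FPM in the aortae (log2 fold change -3.18). Slc27a2, a fatty acid transporter and acyl-CoA synthetase, was at 4236, 4152, 4065 and 4985 FPM in the kidneys and 56.8, 41.7 and 0.243 FPM in the aortae, lowest in the aorta with the fewest adipocyte transcripts. Its adjusted p was 0.00564 without aorta 2, and it passed only when aorta 3 was the library left out. The only transporter without a call was Slc4a4, the sodium bicarbonate cotransporter, at 825, 495, 514 and 623 FPM in the kidneys and 277, 168 and 69.04 FPM in the aortae (log2 fold change -1.84, adjusted p = 0.00378), for which the organs still did not overlap.

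The metabolic genes of the proximal tubule showed the same, with 25 of 28 large towards the kidney, beside 15.1% of all genes tested, and a median of -12.53 (-11.18 with 8 members at their bounds). Mep1a, a brush border protease, was at 2523, 2077, 2396 and 2843 FPM in the kidneys and had no aortic count, at least 12074-fold higher. The detoxifying Cyp2j5 and Keg1 likewise had no count in the aortae. Miox was at 3569.9, 3375, 2909.9 and 3526 FPM in the kidneys with 2 aortic counts. Enzymes of glucose production followed the list in part. Fbp1 (fructose bisphosphatase) was at 1203, 1178, 1188 and 1465 FPM in the kidneys and 0.219, 0.338 and 0 FPM in the aortae. G6pc (glucose-6-phosphatase) was at 437, 279, 406 and 751 FPM in the kidneys and 0, 0.169 and 0 FPM in the aortae. Pck1, named above, was not called. Cyp2e1, which oxidises small molecules, was at 1529, 1209.9, 1869 and 2326 FPM in the kidneys and 421, 355 and 20.9 FPM in the aortae and was not called either. In both the 2 aortae rich in fat markers lay far above aorta 3. Cyp4a14, a fatty acid hydroxylase, varied more than 10-fold among kidneys, at 46.5, 592, 60.7 and 107 FPM. Cyp24a1, which breaks down active vitamin D, was at 72.3, 105, 12.5 and 67.5 FPM.

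Beyond the proximal tubule, 16 of 19 genes of the loop of Henle and distal tubule were large towards the kidney, where 15.1% of all genes tested were (median -9.87, or -8.37 with 5 members at their bounds), and in the collecting duct 17 of 18 (median -9.49, or -7.90 with 6 at their bounds). Umod (ENSMUSG00000030963, chr7:119462711-119479282), which encodes a urinary protein, was at 6008, 5889, 6400.2 and 4905 FPM in the kidneys with no aortic count, at least 28356-fold higher. The furosemide-sensitive cotransporter Slc12a1 was at 1737, 1205, 2105 and 1154 FPM in the kidneys, with 2 counts over the aortae. The thiazide-sensitive one, Slc12a3, was at 806, 922, 746 and 858 FPM in the kidneys and 0.439, 0.675 and 0.243 FPM in the aortae. Each marks its own segment of the nephron. Kl (klotho), the co-receptor of FGF23, was at 731, 512, 523 and 605 FPM in the kidneys and 0.439, 0.169 and 0.729 FPM in the aortae. Aqp2, the vasopressin-regulated water channel of principal cells, was at 1007, 1836, 1248 and 617 FPM in the kidneys and 1.10, 0.675 and 0.243 FPM in the aortae. The bicarbonate exchanger Slc4a1, which intercalated cells share with erythrocytes, was at 71.97, 137, 109 and 68.8 FPM in the kidneys and 1.97, 1.01 and 15.3 FPM in the aortae. It was not called (adjusted p = 0.00185). Aorta 3, highest for Slc4a1, was also highest for the globin Hba-a1. Wnk1, the kinase that controls Slc12a3, was the only gene of these 2 lists called higher in the aorta, at 659, 670.3 and 562 FPM in the aortae and 414, 300.04, 309.8 and 316 FPM in the kidneys (log2 fold change 0.91, SE 0.163, adjusted p = 0.000826). Its direction turned with a correction for exon length (log2 fold change -1.26).

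Of 22 nephron transcription factors tested, 19 were large towards the kidney, beside 15.1% of all genes tested (median -6.94). Hnf4a, the nuclear receptor of the proximal tubule, was at 1170.2, 1217, 981 and 1260.01 FPM in the kidneys and at least 5545-fold higher. It had no count in any aorta. Pax2 and Pax8, which found the renal epithelium, had log2 fold changes of -10.43 and -7.84. Foxi1, the factor of intercalated cells, was at 19.8, 31.3, 28.2 and 22.7 FPM in the kidneys with 1 aortic count. The exception was Osr1, known as a factor of the intermediate mesoderm from which the kidney forms. In these adult organs it was aortic, at 157, 173 and 333 FPM in the aortae and 1.74, 3.05, 3.07 and 4.07 FPM in the kidneys (log2 fold change 6.20, SE 0.377, adjusted p = 1.37e-06). Its relative Osr2 was renal at 15.6, 10.2, 13.8 and 9.88 FPM in the kidneys and 1.32, 0.844 and 0 FPM in the aortae (log2 fold change -4.04). Ppara, the receptor that drives fatty acid oxidation, was at 46.8, 19.4, 33.1 and 40.3 FPM in the kidneys and 80.5, 41.5 and 4.86 FPM in the aortae and was not called. Its aortic values ran from above all kidneys to below all of them.

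On the podocyte list, the slit diaphragm gene Nphs1 (nephrin) was renal, at 30.9, 21.1, 22.1 and 32.02 FPM in the kidneys and 0, 0.169 and 0 FPM in the aortae (log2 fold change -8.41), and so were Wt1, Tcf21 and Col4a3. In contrast, 4 genes that podocytes share with contractile or other cells were large towards the aorta, namely Synpo (synaptopodin, an actin-binding protein), Plce1 (phospholipase C epsilon), Kirrel and Plekhh2. Synpo was at 408, 433 and 628 FPM in the aortae and 83.9, 71.7, 68.6 and 94.1 FPM in the kidneys (log2 fold change 2.62). In total 4 of 16 were large towards the aorta and 5 towards the kidney, beside 14.3 and 15.1% of all genes tested. Podxl (podocalyxin), which endothelium also makes, was at 171, 204 and 107 FPM in the aortae and 172, 152, 148 and 194 FPM in the kidneys and did not differ by the test.

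**Figure D2:**
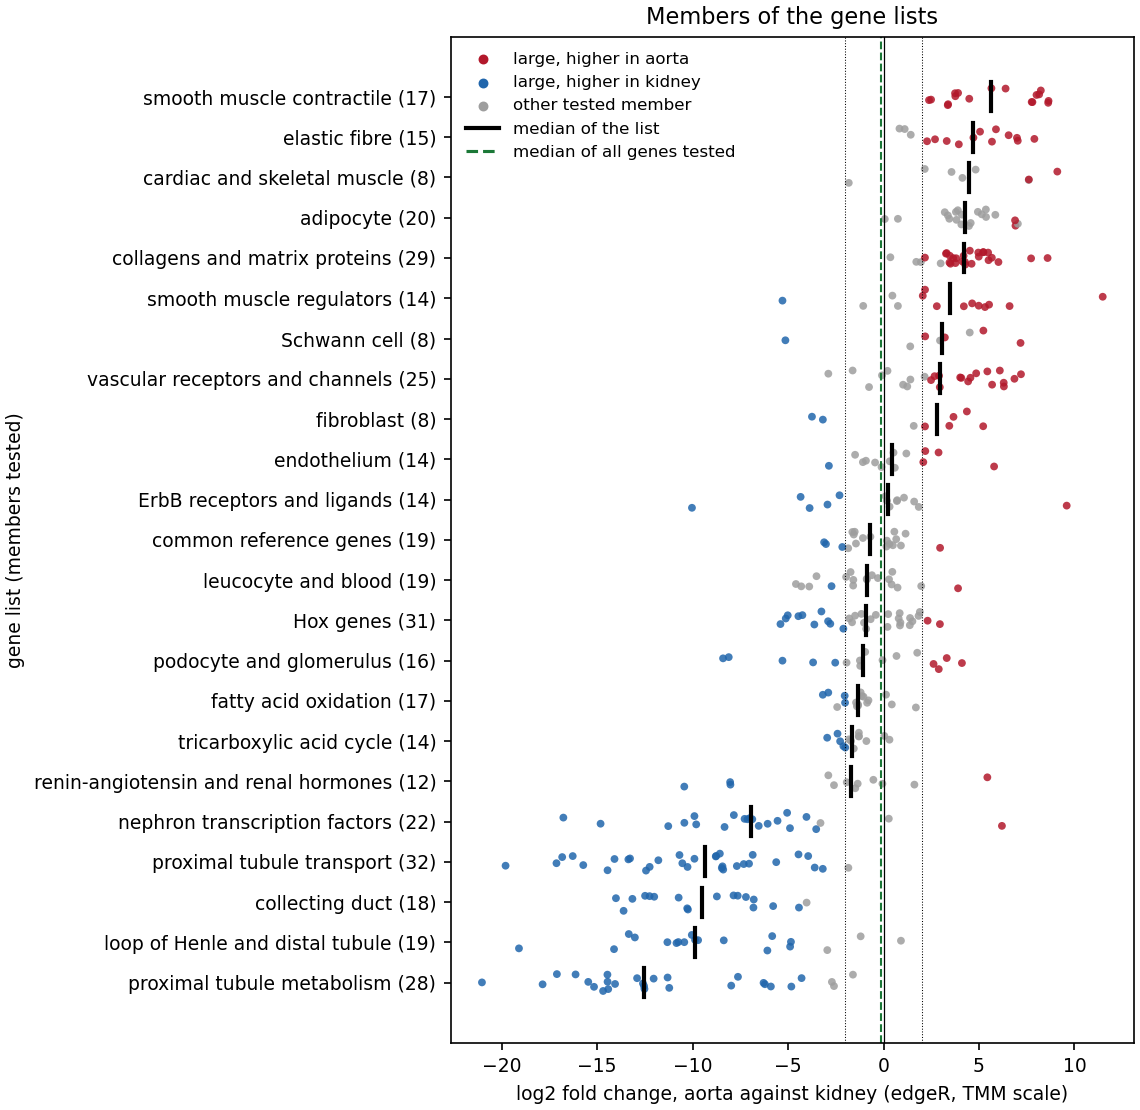
Log2 fold change (aorta minus kidney) of every tested member of 23 gene lists, 1 row per list and 1 point per gene, with large differences coloured by direction. Members without a count in one organ are drawn at their fitted value, which depends on the prior count and is no bound. The contractile, elastic fibre and matrix lists lie to the right (medians 5.65, 4.71 and 4.19) and the tubular lists to the left (-9.35, -12.53, -9.87 and -9.49).

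The Hox genes encode transcription factors that record position along the body axis, low paralogue numbers anterior and high numbers posterior. Of 39 genes, 31 were tested, with 6 called higher in the aorta and 13 in the kidney, where 23.7 and 27.9% of all genes tested were called. Of these, 2 and 10 were large, and with aorta 3 as the only aorta, 6 were large towards the kidney. When they were ordered by paralogue number, a grouping chosen after the values had been seen, the direction changed along the clusters. Of 13 genes with numbers 1 to 5, 6 were called towards the aorta and 0 towards the kidney (median 0.88). Of 8 with numbers 6 to 8, 0 were called towards the aorta and 4 towards the kidney (median -0.97). Of 10 with numbers 9 to 11, 9 were called towards the kidney and 0 towards the aorta (median -3.44, range -5.40 to -0.67). Some of these calls depended on single libraries. With each library left out in turn, Hoxa4, Hoxa5, Hoxa7, Hoxb9 and Hoxc11 lost theirs in 6, 5, 3, 4 and 2 fits. Hoxa2 was at 9.65, 14.01 and 16.5 FPM in the aortae and 1.87, 0.991, 2.56 and 1.36 FPM in the kidneys (log2 fold change 2.95, SE 0.346, adjusted p = 6.21e-05). Hoxa3, of the same cluster, was at 56.4, 58.2 and 79.2 FPM in the aortae and 20.4, 14.6, 19.3 and 18.02 FPM in the kidneys (log2 fold change 1.83, SE 0.173, adjusted p = 1.66e-05). Hoxa5 was at 42.5, 45.6 and 39.1 FPM in the aortae and 22.7, 25.1, 25.6 and 19.97 FPM in the kidneys (log2 fold change 0.86). All 3 were higher in every aorta than in any kidney. Hoxa7 was at 37.1, 47.9 and 39.9 FPM in the aortae and 80.3, 75.2, 81.5 and 75.9 FPM in the kidneys (log2 fold change -0.91). Hoxa9 was at 18.6, 13.3 and 18.2 FPM in the aortae and 121, 113, 108 and 119 FPM in the kidneys (log2 fold change -2.79). These were lower in every aorta than in any kidney. In the D cluster the high numbers were furthest apart. Hoxd9 was at 2.85, 3.04 and 2.43 FPM in the aortae and 89.9, 125, 89.7 and 84.7 FPM in the kidneys (log2 fold change -5.12, SE 0.212, adjusted p = 2.39e-07). Hoxd10 was at 0.658, 0 and 0.243 FPM in the aortae and 10.8, 12.04, 13.7 and 12.1 FPM in the kidneys (log2 fold change -5.40, SE 0.552, adjusted p = 1.19e-05). Of the low numbers, Hoxd3, Hoxd4 and Hoxb4 had negative log2 fold changes of -1.80, -1.16 and -0.40, and of the middle numbers Hoxc8, Hoxa6 and Hoxc6 had positive ones of 1.38, 0.85 and 0.21. None of these 6 was called.

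None of the 10 genes numbered 9 to 11 had a positive log2 fold change in WT-HFD mice, with aorta 3 alone, or after the correction for exon length. Of the 13 numbered 1 to 5, 10 were positive in the main fit, 10 with aorta 3 alone, 11 in WT-HFD and 11 after the length correction. Of the 8 numbered 6 to 8, 3, 2, 3 and 3 were positive in the same order. The median of these 8 was -0.97 in the main fit, -0.50 in WT-HFD and -0.26 after the length correction, so the middle step was smaller there. Neighbouring genes of a cluster share regulatory sequence and are not independent of each other.

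**Figure D3:**
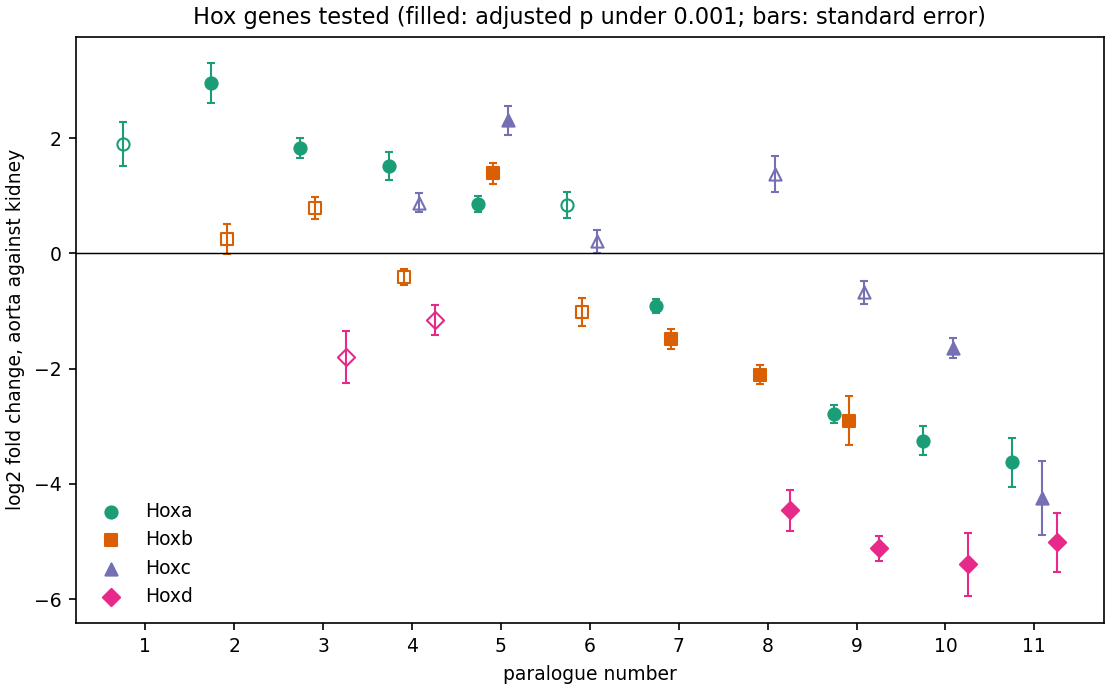
Log2 fold change (aorta minus kidney) with its SE for each tested Hox gene, plotted by paralogue number and coloured by cluster, with filled symbols for called differences. Values run from 2.95 at Hoxa2 to -5.40 at Hoxd10, and all 10 genes numbered 9 to 11 lie below 0.

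Egfr, the gene deleted in the knockout arm of the study and intact in these mice, was not called. Egfr (ENSMUSG00000020122, chr11:16752203-16918158) was at 74.99, 64.97 and 91.4 FPM in the aortae and 72.04, 47.5, 63.4 and 64.1 FPM in the kidneys (log2 fold change 0.32, SE 0.173, adjusted p = 0.122), and the organs overlapped. It was rank 5389 in the aorta and rank 6524 in the kidney. With the correction for exon length its log2 fold change was -0.64 (not called), and in WT-HFD mice it was 0.85 (adjusted p = 4.53e-05), a call towards the aorta. Of the other receptors, Erbb2, the partner with which the ligand-bound receptors pair, was at 30.7, 23.6 and 32.1 FPM in the aortae and 152, 153, 138 and 126 FPM in the kidneys (log2 fold change -2.30, SE 0.153, adjusted p = 2.16e-06). Erbb3, which lacks strong kinase activity of its own, was at 12.7, 6.75 and 5.11 FPM in the aortae and 196, 138, 159 and 173 FPM in the kidneys (log2 fold change -4.34, SE 0.324, adjusted p = 4.18e-06). Erbb4 was at 39.7, 39.5 and 36.2 FPM in the aortae and 23.6, 11.2, 23.8 and 14.5 FPM in the kidneys (log2 fold change 1.07, adjusted p = 0.00513), not called although the organs did not overlap. Per kilobase, the ranks of Egfr and Erbb2 were 5389 and 6202 in the aorta and 6524 and 2159 in the kidney.

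Among the ligands, Egf itself (chr3:129677565-129755316), which the distal tubule makes, was at 2113, 1549.7, 1797 and 1658 FPM in the kidneys and 1.97, 2.03 and 0.972 FPM in the aortae (log2 fold change -10.03, SE 0.368, adjusted p = 1.62e-07), 1041-fold higher in the kidney. Nrg1 (neuregulin-1, a ligand of Erbb3 and Erbb4) was renal too, at 8.95, 10.8, 8.62 and 9.23 FPM in the kidneys and 1.53, 0 and 0.486 FPM in the aortae (log2 fold change -3.87). Ereg (epiregulin) was the only ligand called in the aorta, at 5.26, 10.1 and 8.51 FPM with no count in the kidneys, at least 190.05-fold higher (adjusted p = 4.31e-05). The ligands Hbegf and Tgfa had no called difference. Hbegf (heparin-binding EGF-like growth factor) was at 16.2, 17.6 and 26.5 FPM in the aortae and 15.6, 22.3, 18.7 and 17.7 FPM in the kidneys. Tgfa (transforming growth factor alpha) was at 5.70, 7.59 and 10.5 FPM in the aortae and 8.75, 5.79, 6.95 and 6.35 FPM in the kidneys. In both the organs overlapped. Btc (betacellulin) was at 9.87, 12.99 and 29.4 FPM in the aortae and 5.61, 3.89, 8.66 and 4.50 FPM in the kidneys (adjusted p = 0.0065, not called). Errfi1, a feedback inhibitor of EGFR, was renal at 419.8, 285, 302 and 492 FPM in the kidneys and 44.1, 54.00 and 48.9 FPM in the aortae (log2 fold change -2.93, SE 0.232, adjusted p = 5.75e-06). Adam17, the protease that sheds several of these ligands, was at 54.8, 64.1 and 66.6 FPM in the aortae and 40.7, 33.6, 41.3 and 35.1 FPM in the kidneys (log2 fold change 0.71), just short of the limit. Areg, Epgn and Nrg3 were too low to test, and Adam10 and Nrg4 were not analysed here.

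**Figure D4:**
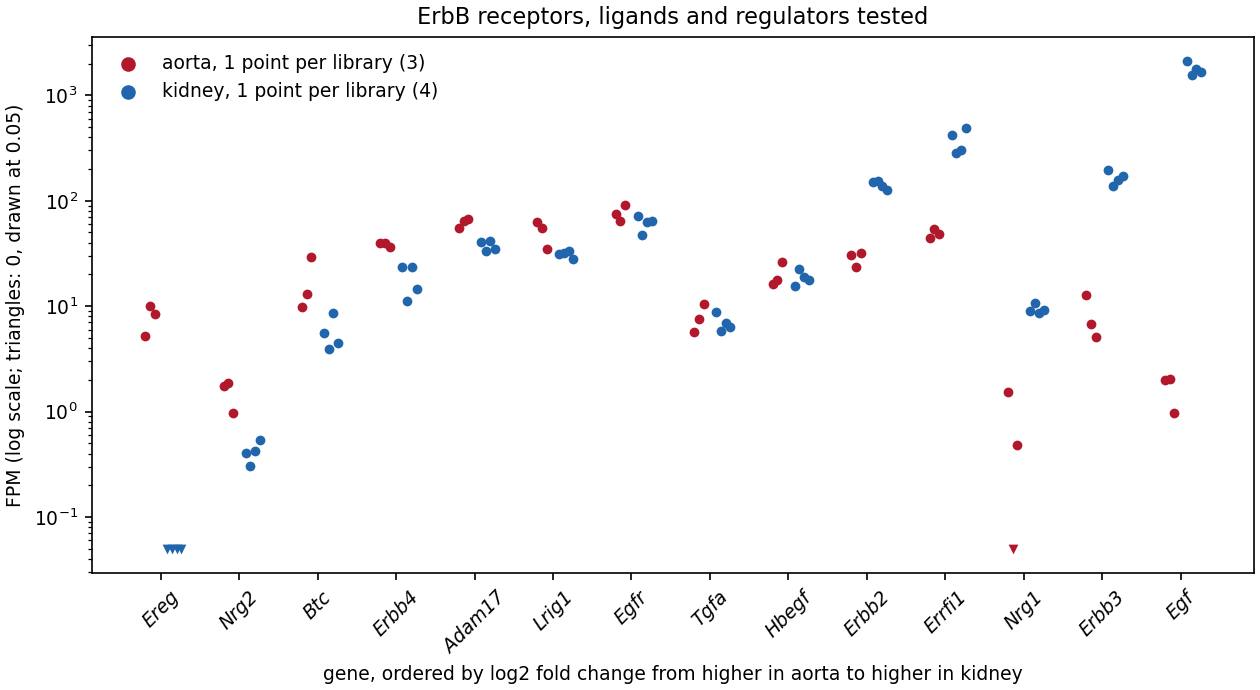
FPM (log scale) of the 14 tested genes of the ErbB receptors, ligands and regulators in each of the 3 aortae and 4 kidneys, 1 symbol per library, with values of 0 drawn as triangles at 0.05. Egfr, Hbegf and Tgfa overlap between the organs, Egf lies between 1550 and 2113 FPM in the kidneys and below 2.04 FPM in the aortae, and Ereg is at 0 in all 4 kidneys.

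Of 12 genes tested of the renin-angiotensin system and renal hormones, 1 was large towards the aorta and 3 towards the kidney, beside 14.3 and 15.1% of all genes tested. In WT-HFD mice these counts were 1 and 7, beside 15.7 and 18.6% of all genes tested there. Ren1 (renin), released by juxtaglomerular cells, was at 49.05, 174, 68.8 and 72.01 FPM in the kidneys and 0, 0.675 and 0.243 FPM in the aortae (log2 fold change -8.03, SE 0.761, adjusted p = 9.38e-06), highest in kidney 2. Ace, the angiotensin-converting enzyme of endothelium and brush border, was at 424, 323, 509 and 628 FPM in the kidneys and 233, 337 and 407 FPM in the aortae without a called difference. Vdr, the vitamin D receptor, was at 306, 266, 237 and 323 FPM in the kidneys and 1.32, 1.35 and 0.486 FPM in the aortae (log2 fold change -8.02). Nr3c2, the mineralocorticoid receptor, was called in the other direction, at 46.3, 46.9 and 60.8 FPM in the aortae and 19.4, 12.1, 18.3 and 16.99 FPM in the kidneys (log2 fold change 1.62). Epo was too low to test, at 0.267, 0.991, 0.0427 and 0.163 FPM in the kidneys and 0 in the aortae.

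Cell types that both organs contain gave mixed lists. Endothelial genes had a median log2 fold change of 0.42, with 4 of 14 large towards the aorta and 1 towards the kidney, and summed to 1746, 2099 and 1708 FPM in the aortae and 999.96, 1206, 998 and 977 FPM in the kidneys. Of all genes tested, 14.3 and 15.1% were large in these directions. In WT-HFD mice 4 endothelial genes were large towards the aorta and 3 towards the kidney, beside 15.7 and 18.6% of all genes tested there. Pecam1, a marker of all endothelium and the most abundant gene of the list, was at 469, 703 and 689 FPM in the aortae and 86.7, 92.5, 84.6 and 72.4 FPM in the kidneys (log2 fold change 2.88). Vwf (von Willebrand factor) was at 476, 608 and 496 FPM in the aortae and 11.3, 11.4, 9.85 and 5.43 FPM in the kidneys (log2 fold change 5.79). Nos3 (endothelial nitric oxide synthase) was at 77.4, 82.5 and 69.04 FPM in the aortae and 15.1, 19.97, 15.7 and 16.2 FPM in the kidneys (log2 fold change 2.19). In the other direction, Plvap, of fenestrated capillaries, was at 369.6, 507, 369 and 346 FPM in the kidneys and 83.98, 59.1 and 20.9 FPM in the aortae (log2 fold change -2.86). Ehd3, of glomerular endothelium, was called at 37.3, 30.5, 34.5 and 38.96 FPM in the kidneys and 14.9, 18.6 and 16.5 FPM in the aortae (log2 fold change -1.08), and lost the call with 3 of 7 libraries left out in turn. Tie1, a receptor of all endothelium, was at 87.7, 94.2 and 75.1 FPM in the aortae and 82.6, 109, 85.03 and 91.6 FPM in the kidneys and did not differ by the test. Kdr (VEGF receptor 2) was at 97.6, 64.5 and 6.08 FPM in the aortae, low only in aorta 3, and at 75.2, 63.9, 70.3 and 95.7 FPM in the kidneys. Fibroblast genes were large towards the aorta in 5 of 8, such as Pi16, Dpt and Scara5 of the adventitia, and towards the kidney in 2, Ly6a and Dpp4. Dpp4, which is also a brush border peptidase, was at 75.1, 60.3, 76.2 and 88.6 FPM in the kidneys and 5.92, 5.91 and 4.86 FPM in the aortae. The list summed to 2989, 2096 and 2280.3 FPM in the aortae and 792, 899.5, 998 and 953 FPM in the kidneys, with Gsn (gelsolin) the most abundant.

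Among the macrophage genes, Lyz2 (lysozyme) was at 73.02, 70.9 and 78.03 FPM in the aortae and 33.3, 70.5, 108 and 29.96 FPM in the kidneys. C1qa, a complement subunit, was at 28.7, 24.6 and 23.6 FPM in the aortae and 27.7, 45.7, 50.2 and 32.8 FPM in the kidneys. Neither was called. Mrc1, the mannose receptor of resident macrophages, was the 1 large aortic gene of 19 tested on the leucocyte and blood list (beside 14.3% of all genes tested), at 47.6, 41.01 and 60.05 FPM in the aortae and 3.14, 3.35, 4.01 and 2.66 FPM in the kidneys (log2 fold change 3.90). H2-Ab1, an antigen-presenting class II gene, was the 1 large renal gene (beside 15.1% of all genes tested), at 165, 225, 269 and 234 FPM in the kidneys and 51.7, 35.3 and 14.3 FPM in the aortae (log2 fold change -2.72). In WT-HFD mice 7 genes of the list were large towards the kidney, beside 18.6% of all genes tested there. The globin Hba-a1, the most abundant gene of the list, was at 1309.6, 1216, 1252 and 1459 FPM in the kidneys and 13.8, 4.39 and 181 FPM in the aortae (adjusted p = 0.00739, not called). The list as a whole summed to 466, 395 and 993 FPM in the aortae and 4543, 4541, 5022 and 4849 FPM in the kidneys. On the list of Schwann cells, which ensheathe nerves, 4 of 8 genes tested, among them Cdh19 and S100b, were large towards the aorta, beside 14.3% of all genes tested. Mal, a myelin and tubular protein, was large towards the kidney at 294, 249, 279 and 201 FPM in the kidneys and 13.6, 5.91 and 2.19 FPM in the aortae. The list summed to 364, 180.2 and 215 FPM in the aortae and 329.7, 284, 319 and 234 FPM in the kidneys.

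Genes of energy metabolism varied with the adipocyte transcripts of the aortae. On the list of the tricarboxylic acid cycle 5 of 14 were large towards the kidney (median -1.63), and on that of fatty acid oxidation 4 of 17, beside 15.1% of all genes tested (median -1.33), with none towards the aorta. With aorta 3 as the only aorta, a fit in which the 4 kidneys alone supply the spread and the lone aorta is assumed to vary like them, the counts were 12 and 14. In WT-HFD mice they were 12 and 13, and without kidney 4 they were 1 and 0. With upper quartile factors they were 1 and 0. The tricarboxylic acid cycle genes summed to 4969.6, 3582 and 1212 FPM in the aortae and 7312, 7619.5, 7705 and 8373 FPM in the kidneys. The oxidation genes summed to 3641, 2858 and 722 FPM and 5758, 7081, 6107 and 7165 FPM. Aorta 3, poorest in adipocyte transcripts, was also poorest in both. Cs (citrate synthase) was at 552, 425 and 143 FPM in the aortae and 289.7, 284, 307 and 321 FPM in the kidneys and was not called. Ogdh, a subunit of the oxoglutarate dehydrogenase, was at 1103, 737 and 281 FPM in the aortae and 682, 615, 702 and 745 FPM in the kidneys and was not called. Suclg2, the GTP-specific subunit of succinyl-CoA ligase, varied little between aortae, at 52.6, 64.3 and 46.7 FPM in the aortae and 417, 377, 397 and 497 FPM in the kidneys (log2 fold change -2.95). Cpt1a, the entry enzyme of mitochondrial fatty acid oxidation, varied little too, at 108, 145 and 116 FPM in the aortae and 581, 401, 481 and 551 FPM in the kidneys (log2 fold change -2.03). Of the 20 adipocyte genes themselves, only Plin4 and Acvr1c were called higher in the aorta, where 23.7% of all genes tested were. With aorta 3 left out, 17 were large towards the aorta, as were 1971 of the 13604 genes tested there. Plin4, a lipid droplet protein that muscle also makes, was at 1036, 939 and 640.1 FPM in the aortae and 2.47, 9.22, 3.67 and 13.6 FPM in the kidneys. Lpl (lipoprotein lipase) was at 2429.7, 2409 and 147 FPM in the aortae and 799, 898, 1115 and 1132 FPM in the kidneys and was not called. The part of adhering fat in these differences was not tested.

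**Figure D5:**
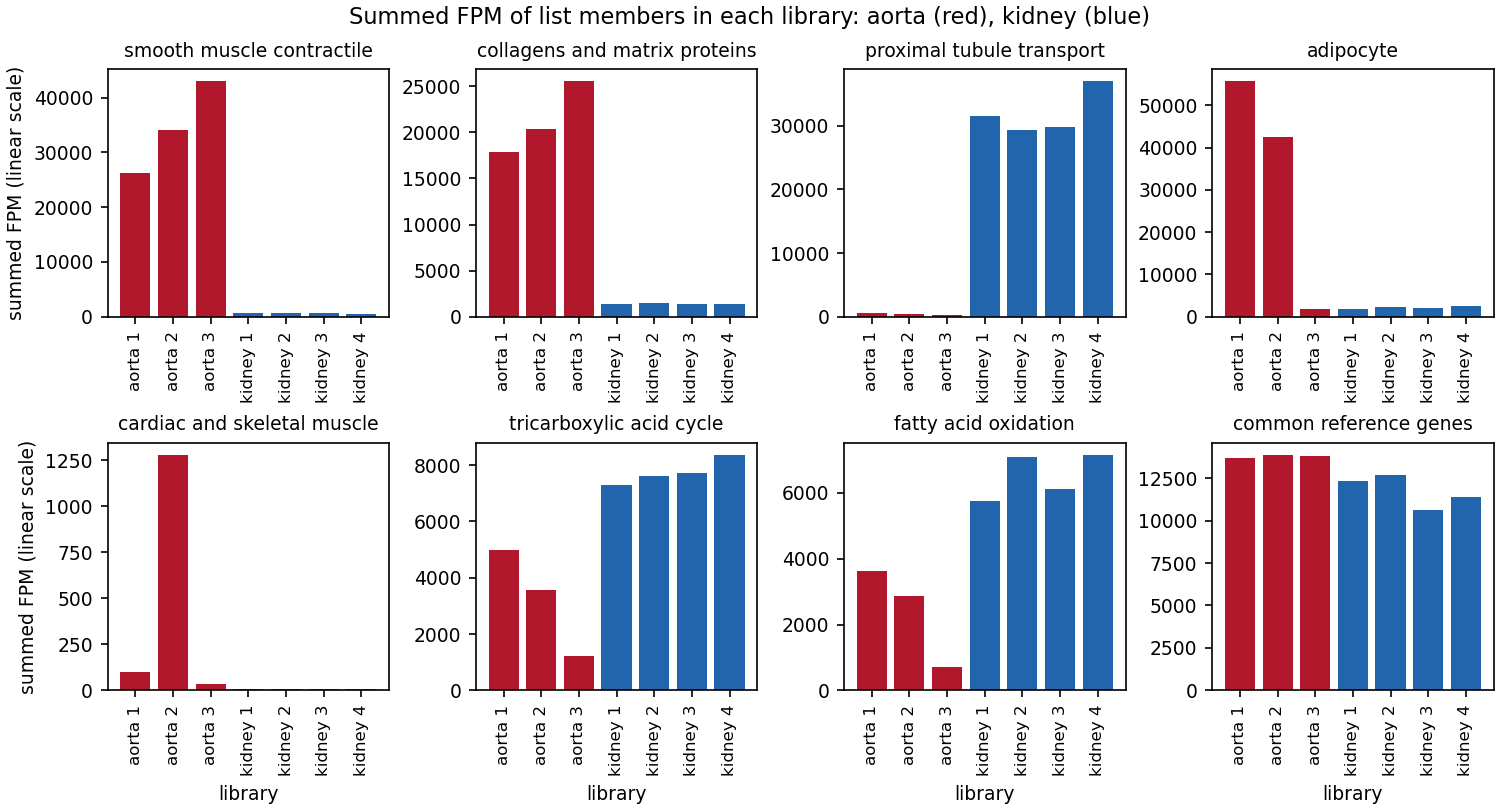
Summed FPM of 8 gene lists in each of the 7 libraries, 1 bar per library. The contractile and matrix sums separate the organs in every library, the adipocyte sums are high only in aorta 1 and 2 (55746 and 42536 FPM), the cardiac and skeletal muscle sum only in aorta 2 (1279 FPM), and the 2 metabolic lists are lowest in aorta 3.

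Of 19 genes in common use as internal references, 9 were called, 1 towards the aorta and 8 towards the kidney, where 23.7 and 27.9% of all genes tested were called. Of these 1 and 3 were large, where 14.3 and 15.1% of all genes tested were. Actb was at 4044, 4305 and 5725 FPM in the aortae and 471, 679, 672 and 585 FPM in the kidneys (log2 fold change 2.96, SE 0.291, adjusted p = 2.09e-05), 7.62-fold higher in the aorta. Rplp0, a ribosomal stalk protein, was at 171, 158 and 177 FPM in the aortae and 407, 603, 476 and 437 FPM in the kidneys (log2 fold change -1.51). Psmb4, a proteasome subunit, was at 28.7, 35.3 and 26.01 FPM in the aortae and 227, 306, 243 and 262 FPM in the kidneys (log2 fold change -3.11). Closest to level were Ipo8, at 71.04, 79.5 and 79.01 FPM in the aortae and 76.4, 62.3, 65.02 and 70.9 FPM in the kidneys (log2 fold change 0.16), and Ywhaz (log2 fold change 0.18). Neither was called. The scaling sets where level lies, and the median log2 fold change of all genes tested was -0.11 here and 0.19 with upper quartile factors.

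Another group was that of the histone cluster genes, taken by their symbols alone. Many of these are replication-dependent genes whose mRNAs end without a poly(A) tail, which was not checked for each member. Of 56 tested from the histone clusters, 29 were large towards the aorta and 2 towards the kidney (median 2.65), beside 14.3 and 15.1% of all genes tested. With aorta 3 as the only aorta, 16 were large towards the aorta. The list summed to 721, 751 and 809 FPM in the aortae and 799.96, 715, 674 and 663 FPM in the kidneys. The 2 renal genes were abundant, with Hist1h2bc at 249, 290.2, 252 and 267 FPM in the kidneys and 40.8, 58.4 and 54.5 FPM in the aortae. Over all genes tested, those with short transcripts were more often renal, although these histone genes, with a median exon length of 539 bases, were not. From the fifth of genes with the shortest exon length to that with the longest, the median log2 fold change was -1.05, -0.66, -0.30, 0.13 and 0.92, and the share of genes with a large aortic difference 11.2, 9.83, 12.6, 14.1 and 23.4%. The share with a large renal difference went from 26.6 to 6.07%. When the length trend of each library was used as an offset, 1850 genes were large towards the aorta and 1648 towards the kidney. Of the original sets 1548 and 1502 remained large, and 9 of the aortic ones changed sign. Whether this trend belongs to the organs or to the 2 sets of libraries cannot be told apart.

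The comparison was repeated in other mice, the WT-HFD group with 4 aortae and 4 kidneys, which share no library with the SFD groups. Of the 1909 genes with a large aortic difference on SFD, 1667 were also large on HFD, which is 87.3% of the SFD list and 82.2% of the 2029 genes on the HFD list (15.7% of the 12890 tested there). Of the 2019 renal ones 1819 were also large, which is 90.1% of the SFD list and 76.0% of the 2392 on the HFD list (18.6% of those tested). None of those tested on both diets changed direction. The HFD libraries came from the same 2 sequencing sites, so this repeat does not separate site from organ. The difference between the diets of the organ effect was itself tested in 14080 genes. By edgeR 0 (0.00%) passed an adjusted p of 0.001, 59 (0.419%) passed 0.05, and 2035 had an unadjusted p below 0.05. The smallest adjusted p was 0.00464.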

How the data were processed

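mRNA levels in aorta and kidney of WT-SFD mice were taken from 2 tables of raw counts per gene, 1 column per mouse. Per the labels, RNA was depleted of ribosomal RNA and sequenced paired-end, and the authors' processing names cutadapt, TopHat, featureCounts and the build mm10. The deposited counts were not normalised. Strand setting and treatment of reads mapping to several places were not given in the sources used here. Antisense or overlapping partners and near-identical copies can therefore share reads. The strain, sex, diet and tamoxifen details are from the labels and the study's methods.

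Tables were joined by gene identifier and protein-coding rows kept. Exon lengths and positions came from GENCODE vM21 (21756 of 22026 genes). After filterByExpr, 13382 genes were fitted with TMM factors and edgeR 4.0.16 (glmQLFit and glmQLFTest, R 4.3.3, 2 groups, no covariate, common dispersion 0.0562), with p values adjusted by the Benjamini-Hochberg method over all genes tested. Folds are ratios of pooled FPM, and against an organ without counts they are lower bounds from 3 counts over the group. The adjusted p values set the organ difference against the spread between the mice of each organ. They cannot tell organ apart from sequencing site. No 2 libraries of an organ were copies (smallest chi-square per gene 16.3). The fit was tested on simulated data. Figures used Python 3.11.15, numpy 2.4.6, pandas 2.3.3 and matplotlib 3.10.9.

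The genes described were Egfr, the 10 largest differences per direction with a higher mean of at least 10 FPM, the 10 highest genes per organ, genes in both top 100s and, per list, the most abundant members, those against the list's direction and all ErbB, Hox, nephron and smooth muscle factors. A few genes that this rule names are not reported here. Others (such as single list members) were named after their values were seen. The comparison, members and lists were chosen with earlier results of these data known. Alternatives were DESeq2 1.42.0, RLE, upper quartile and no factors, no filter, all rows, all 8 groups, edgeR's legacy test, WT-HFD libraries, aorta 3 alone, an adjusted p of 0.05 and leaving out each library. The exon length offset and the ranking without Gm models were added after seeing the data.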

Additional observations from a re-analysis of the deposited data

Results flagged for a closer look

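Among the kidneys, 13 of 191 groups of 4 values had 1 library far from the other 3, where chance gives about 1 in 20. In 9 of them it was kidney 2, with Acta2 at 40.4, Hoxd9 at 125, Igfbp7 at 2874, Plvap at 507, Srf at 83.5, Tcf21 at 45.4 and Ubb at 1675 FPM above the other 3, and Hoxc8 at 7.55 and Tfcp2l1 at 203 FPM below them. Kidney 4 was high for Heyl (7.16 FPM) and Slc22a6 (1988 FPM), kidney 3 low for Scd1 (255 FPM), and kidney 1 high for Wnk1 (414 FPM).

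For 2 of the genes named, the organ difference itself differed between the diets (edgeR interaction, adjusted p below 0.05 over 14080 genes). For Erbb3 the log2 fold change was -4.34 on SFD and -6.14 on HFD, a difference of 1.83 in the joint fit (adjusted p = 0.0433), with aortic means of 8.19 and 2.39 FPM and renal means of 166 and 172 FPM. For Esrrg, an oestrogen-related receptor, it was -3.30 and -6.54, a difference of 3.30 (adjusted p = 0.0482), with aortic means of 5.87 and 0.673 FPM. In both genes aorta 3 of the SFD group, with 5.11 and 0.486 FPM, was the lowest of the 3.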

How the results depend on the processing

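Over 18 alternative fits of the 210 named genes tested, 3341 of 3760 values kept their direction and their side of the limit, 222 kept the direction but no longer passed and 156 newly passed. The sign changed in 41, of which 35 (in 17 genes) passed the limit in neither fit. The other 6 were Lpl (-2.76 with aorta 3 alone, -1.65 in WT-HFD), Ogdh (-1.30 and -1.18), Ppara (-2.78 in WT-HFD) and Wnk1 (-1.26 with the length offset), and for these the cause was not tested. Genes called higher in the aorta and in the kidney numbered 2426 to 3305 and 2867 to 3684 when 1 library was left out, large ones 1653 to 1971 and 1765 to 2015, and 4186 and 4342 by DESeq2. An adjusted p of 0.05 gave 4856 towards the aorta. Library totals and upper quartile factors moved the median log2 fold change of all genes by 0.20 and 0.30. The top 100s shared 11 genes when ranked without length, and 22 to 30 with 1 library left out. The share of the top 10 in the aorta was 9.16% without Gm models and 15.4 to 20.0% with 1 library left out, that of the kidney 8.94 to 9.23%. Genes at 1 FPM or more in every aorta numbered 11464 to 11952, and in every kidney 11595 to 11737. Of 900 list counts, 85 moved. With single libraries left out, Gpx3 (adjusted p up to 0.00684, without aorta 2), Igfbp7 (0.00430, without aorta 2), Wnk1 (0.00505, without aorta 2), Hoxa4 (0.00183, without kidney 1), Hoxa5 (0.00285, without aorta 2), Hoxa7 (0.0013, without kidney 3), Hoxb9 (0.00242, without aorta 2), Nrg1 (0.00196, without kidney 2), Plvap (0.00215, without aorta 2), Osr2 (0.00148, without aorta 2) and Elf5 (0.0122, without aorta 3) kept their direction and lost the call. The same held for Hoxc11 (adjusted p up to 0.00187, without aorta 2) and Twist2 (0.00156, without aorta 1). No paired analysis was possible because only 1 mouse gave both organs. Depth limits the aortic floor to 0.205 FPM.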
